A study of Mus musculus with 6 samples.

Results

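The immunoglobulin heavy chain constant genes of the mouse encode the part of an antibody that sets its class, and 8 of the 26027 genes in the count table are described here: Ighm, Ighd, Ighg3, Ighg1, Ighg2b, Ighg2c, Ighe and Igha. They were picked by symbol, with Ighg1 and Igha singled out because earlier results of the same libraries had shown them higher in mutant cells, and with Ighm and Ighd as the contrast. The genotype difference of these genes is therefore given as a description. No p-value is given for it, and where a fit across all genes calls a member, that call restates the choice of the gene. The libraries hold total RNA, depleted of ribosomal RNA, from bone marrow cells of C57BL/6 mice sorted as lineage-negative, cKit-positive and eYFP-positive, a gate the submitters use for immature multipotent progenitors. All mice carried hScl-CreERT, a tamoxifen-activated Cre driven by Scl regulatory sequence that is active in blood stem and progenitor cells, and R26eYFP, a reporter that marks cells in which Cre has acted. All were treated with tamoxifen in vivo. The 3 mutant libraries came from Srsf2 P95H/+ mice, heterozygous for a proline-to-histidine change in a splicing factor mutated in myeloid cancers, and the 3 control libraries from Srsf2 +/+ (wild-type) mice. The age was 32 weeks except in wild-type replicate 1, a 54-week-old female. Males gave wild-type replicates 2 and 3 and the third mutant library, and the first and second mutant libraries were female, so sex and age were not balanced between the genotypes. The labels do not say that each library is a separate mouse, so the p-values below measure the spread between libraries.

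A B cell first joins a rearranged variable region to Ighm, the gene of IgM, and can make Ighd, the gene of IgD, from the same primary transcript by alternative splicing and polyadenylation. After activation, class switch recombination deletes the DNA between Ighm and a downstream constant gene and so gives IgG, IgE or IgA. Plasma cells then secrete these antibodies, and bone marrow is a long-term home for them. The constant genes also give germline transcripts from the unrearranged or unswitched locus, among them Ighm transcripts in early lymphoid cells, so that a count over a constant gene does not by itself show a complete antibody mRNA. In sequencing of bulk cells, fewer cells of a type and less RNA per cell cannot be told apart.

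In the mm10 genome and the GENCODE M21 annotation all 8 genes lie on the minus strand of chromosome 12, each is annotated as an immunoglobulin constant gene, and none overlaps another gene on either strand. Ighm (ENSMUSG00000076617) lies at chr12:113418558-113422730 and Ighd (ENSMUSG00000104213) follows it at chr12:113406604-113416324. The 4 IgG genes come next in the direction of transcription. Ighg3 (ENSMUSG00000076615) spans chr12:113356224-113361232, Ighg1 (ENSMUSG00000076614) spans chr12:113325240-113330523, Ighg2b (ENSMUSG00000076613) spans chr12:113302965-113307933, and Ighg2c (ENSMUSG00000076612) spans chr12:113285325-113288932. Ighe (ENSMUSG00000087642) lies at chr12:113269260-113273248, and Igha (ENSMUSG00000095079) is last at chr12:113254830-113260236. From the start of Ighm to the end of Igha the row of genes covers 167.9 kb.

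How well the IgG genes can be told apart bears on every value below, so the first 90 bases of their first constant exon, which encodes the start of the CH1 domain, are shown on the coding strand. Capitals mark bases that differ from Ighg1 at the same position.
Ighg1: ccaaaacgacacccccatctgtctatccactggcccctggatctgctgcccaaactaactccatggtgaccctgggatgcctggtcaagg
Ighg2b: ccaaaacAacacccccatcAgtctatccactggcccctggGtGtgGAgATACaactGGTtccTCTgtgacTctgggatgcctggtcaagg
Ighg2c: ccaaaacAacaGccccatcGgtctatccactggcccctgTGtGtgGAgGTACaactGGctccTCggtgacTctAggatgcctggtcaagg
Ighg3: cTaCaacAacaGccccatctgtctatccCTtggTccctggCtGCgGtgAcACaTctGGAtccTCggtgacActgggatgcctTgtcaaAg
The stretch of Ighg1 lies at chr12:113330434-113330523, that of Ighg2b at chr12:113307844-113307933, that of Ighg2c at chr12:113288843-113288932 and that of Ighg3 at chr12:113361143-113361232, all on the minus strand. Within these 90 bases Ighg2b differed from Ighg1 at 17 positions, Ighg2c at 18 and Ighg3 at 23. Over the whole exon of 291 bases the differences numbered 34, 35 and 61.

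The hinge exon, which links the antigen-binding arms to the stem of the antibody, is shown because it differs among the IgG genes in both length and letters.
Ighg1: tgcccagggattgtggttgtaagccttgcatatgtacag
Ighg2b: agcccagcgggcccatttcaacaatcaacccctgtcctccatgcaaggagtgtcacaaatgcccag
Ighg2c: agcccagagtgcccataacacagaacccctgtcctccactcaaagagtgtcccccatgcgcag
Ighg3: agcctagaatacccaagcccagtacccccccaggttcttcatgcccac
These hinge exons run to 39 bases in Ighg1 (chr12:113329844-113329882), 66 in Ighg2b (chr12:113307261-113307326), 63 in Ighg2c (chr12:113288263-113288325) and 48 in Ighg3 (chr12:113360529-113360576). Identity was taken over the coding sequence of the shorter, secreted transcript of each gene, without the last exons of the longer transcript. The IgG genes were between 73.9% (Ighg1 and Ighg3) and 85.6% (Ighg2b and Ighg2c) identical there. The longest stretch shared without a difference was sought over all transcripts of each gene. It was 88 bases between Ighg2b and Ighg3, 78 between Ighg2b and Ighg2c, and 59 between Ighg1 and either Ighg2b or Ighg3. All of these are shorter than the sequenced reads of 150 bases, but trimmed reads can be shorter, and how reads matching several genes were counted is not given in the sources used here, so counts of the IgG genes are uncertain to that extent. For Ighm and Igha the start of the first exon is shown to set them beside the IgG genes, and these carry no capitals because no alignment by position was made.
Ighm: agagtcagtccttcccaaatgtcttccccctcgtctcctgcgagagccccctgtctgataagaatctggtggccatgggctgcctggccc
Igha: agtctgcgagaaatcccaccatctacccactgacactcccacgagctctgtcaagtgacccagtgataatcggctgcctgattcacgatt
The Ighm stretch lies at chr12:113422641-113422730 and the Igha stretch at chr12:113260147-113260236. No pair with a gene outside the IgG group shared a run longer than 15 bases.

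The libraries held 10747941 to 23010510 counts assigned to genes, and levels are given as CPM, a gene's count scaled to a common library total. Levels of Srsf2 lay between 315.1 and 343.1 CPM in all 6 libraries, which does not check the point mutation, and Xist and the Y-linked gene Ddx3y matched the labelled sex in each of the 6. Of the stem and progenitor markers, Kit, the receptor used in the gate, stood at 476 to 548 CPM, and Myb, a progenitor transcription factor, at 619 to 830.1 CPM. The myeloid granule genes Mpo (4013 to 6367 CPM) and Elane (1024 to 2337 CPM) were the most abundant of that list, while Ly6a and Procr, surface markers of stem cells, were at most 4.91 and 4.69 CPM. Both replicate 3 libraries stood apart from the other 4. On the first principal component, which held 61.6% of the variance, they lay at 48.7 and 81.8 against -36.1 to -24.3 for the others. Results are therefore also given for the 4 libraries without replicate 3, and what sets those libraries apart was not tested.

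Ighm was the most abundant of the 8 genes in the progenitor gate, and its levels in the genotypes overlapped. Its level was 237, 258 and 209.9 CPM in wild-type replicates 1, 2 and 3 and 171, 192 and 239 CPM in P95H/+ replicates 1, 2 and 3. P95H/+ replicates 1 and 2 were below all 3 wild-type libraries, while P95H/+ replicate 3 lay among them, so the groups overlapped. The mean was 235 ± 24.3 CPM over the 3 wild-type libraries and 200.4 ± 35.1 CPM over the 3 mutant libraries (SD). In the model fitted across all genes (edgeR), the log2 fold change of Ighm, mutant over wild type, was -0.15 with a standard error (SE) of 0.22 over 6 libraries and -0.42 (SE 0.09) over the 4 libraries.

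Ighd, the other gene of the unswitched class, was far lower. It stood at 5.91, 3.27 and 3.09 CPM in wild type and at 1.25, 2.21 and 6.61 CPM in P95H/+. The highest value of all was P95H/+ replicate 3 and the lowest was P95H/+ replicate 1, so the mutant libraries enclosed the wild-type ones. The log2 fold change was -0.25 (SE 0.62) over 6 libraries and -1.38 (SE 0.36) without replicate 3. It ran from -1.19 to 0.15 as single libraries were left out, and the sign therefore rests on which libraries enter. Counts of Ighm per count of Ighd, which are not corrected for length, were 40.1, 79.1 and 68.0 in wild type and 137, 86.7 and 36.2 in P95H/+.

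Igha, the constant gene of IgA, the class of mucosal secretions, was the second most abundant member and one of the genes picked for its difference. It stood at 99.3, 14.7 and 61.3 CPM in wild type (2285, 311 and 1033 counts) and at 177, 116 and 192 CPM in P95H/+ (3833, 2634 and 2060 counts). All 3 mutant libraries were above all 3 wild-type libraries, but the gap between the lowest mutant and the highest wild-type library was only 1.17-fold. The 3 wild-type libraries averaged 58.5 ± 42.4 CPM and the 3 mutant libraries 162 ± 39.8 CPM (SD), a ratio of 2.77. The fitted log2 fold change was 1.56 (SE 0.61) over 6 libraries and 1.40 (SE 1.23) over 4. The highest wild-type value belonged to replicate 1, the female of 54 weeks, and the part of age in it was not tested.

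Ighg1, the constant gene of IgG1, a class made in responses helped by T cells, showed the widest difference between the genotypes among the members. Wild-type replicates 1, 2 and 3 had 4, 4 and 2 counts (0.174, 0.190 and 0.119 CPM), and P95H/+ replicates 1, 2 and 3 had 57, 129 and 67 counts (2.63, 5.70 and 6.23 CPM). Each mutant library was above each wild-type library, with 13.9-fold between the nearest values. The 3 mutant libraries averaged 4.86 ± 1.95 CPM and the 3 wild-type libraries 0.161 ± 0.0372 CPM (SD), a ratio of 30.2. Pooled over libraries, 253 counts in the mutant stood against 10 in wild type, a ratio of rates of 28.0, with a 95% interval of 15.0 to 59.1 that covers counting error only. The fitted log2 fold change was 4.90 (SE 0.49) over 6 libraries and 4.51 (SE 0.51) over 4, and leaving out single libraries moved it between 4.67 and 5.20. Even in P95H/+, Ighg1 was a minor gene of the group, at 0.729% to 1.68% of its counts.

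**Figure D1:**
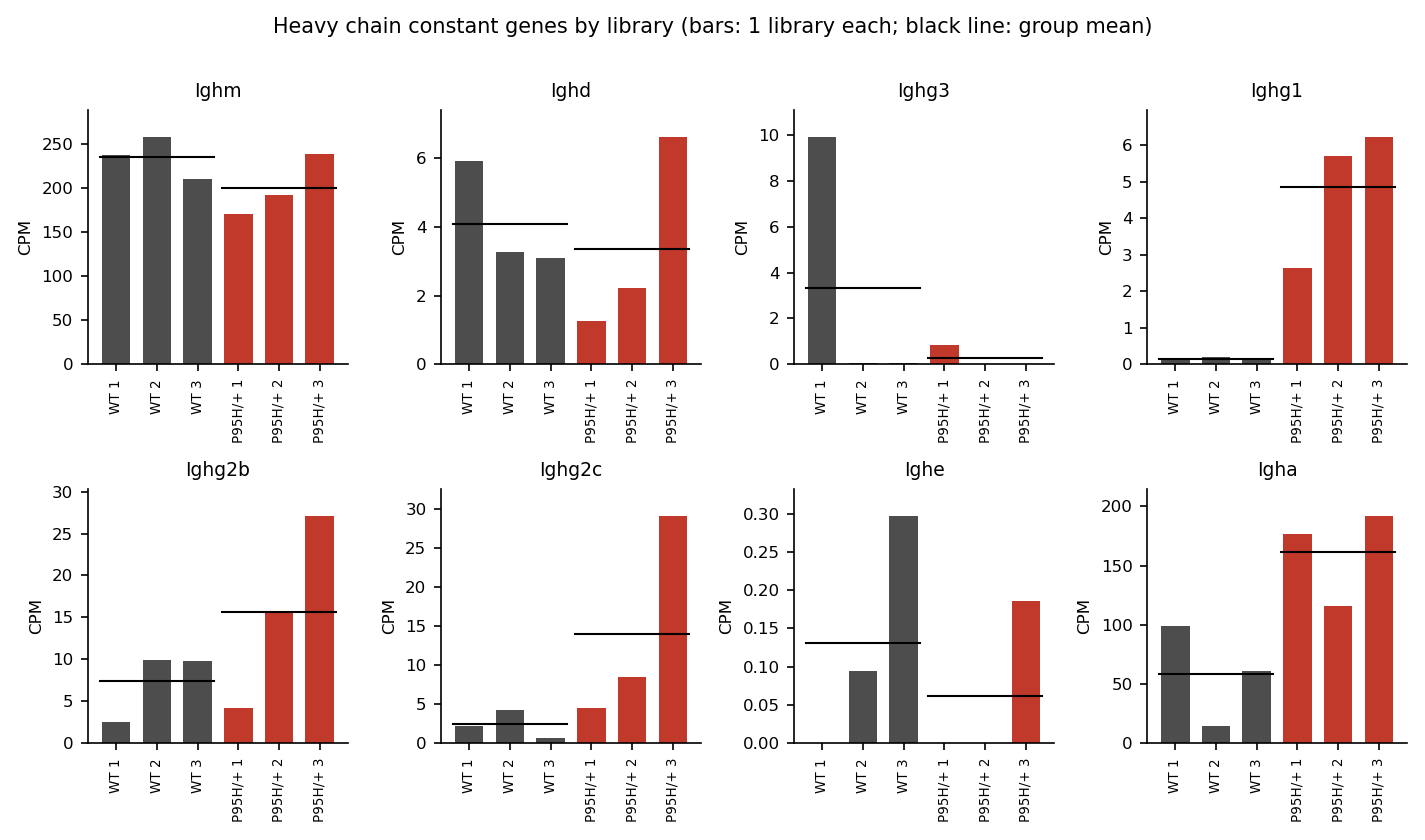
CPM (y axis, a separate linear scale from 0 in each panel) of the 8 heavy chain constant genes, with 1 bar for each library, wild type in gray and P95H/+ in red, and a black line at the group mean. Ighg1 was between 2.63 and 6.23 CPM in the 3 mutant libraries and at most 0.190 CPM in wild type, while Ighm and Ighd overlapped.

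The other IgG genes did not share 1 pattern. Ighg2c, the constant gene of IgG2c, stood at 2.26, 4.31 and 0.653 CPM in wild type and at 4.52, 8.45 and 29.1 CPM in P95H/+. The mutant libraries were all above the wild-type ones, but by only 1.05-fold at the nearest pair, and P95H/+ replicate 3 was far above the other 5 libraries. The log2 fold change was 2.60 (SE 0.87) over 6 libraries and 1.01 (SE 0.41) without replicate 3.

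Ighg2b, the constant gene of IgG2b, stood at 2.56, 9.95 and 9.80 CPM in wild type and at 4.15, 15.6 and 27.1 CPM in P95H/+. P95H/+ replicate 1 lay below wild-type replicates 2 and 3, so the groups overlapped. The log2 fold change was 1.15 (SE 0.73) over 6 libraries and 0.68 (SE 1.21) over 4.

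Ighg3, the constant gene of IgG3, a class often made without T cell help, came almost wholly from 1 library. Wild-type replicate 1 stood at 9.91 CPM, wild-type replicates 2 and 3 had 1 count each, P95H/+ replicate 1 had 18 counts (0.830 CPM), and P95H/+ replicates 2 and 3 had 0. A count of 0 allows up to 0.133 CPM in P95H/+ replicate 2 and 0.279 CPM in P95H/+ replicate 3, taking 3 counts as the limit. The library with the high value is again the one from the female of 54 weeks. Ighe, the constant gene of IgE, had 0, 2 and 5 counts in wild type and 0, 0 and 2 in P95H/+, too few for a comparison at this depth.

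Of the 8 members, 6 passed the filter on low counts in the 6-library fit, and Ighg3 and Ighe did not. Ighg1 passed through its mutant libraries alone. Among the 6, Ighg1, Ighg2c and Igha had mutant libraries all above the wild-type ones, where 1.91% of the 17144 genes tested did (328 genes), and none had them all below, where 5.93% of the genes did. Since these differences were known when the genes were picked, nothing is read from the count. With Benjamini-Hochberg adjustment at 0.05, edgeR's quasi-likelihood test called 0% of the 17144 genes over 6 libraries, members included, while 361 had an unadjusted p under 0.05. DESeq2 called 8 of 17130 genes (0.0467%), limma voom called 0, and limma voom with quality weights for libraries called 97 (0.566%). With the replicate number as a block edgeR called 1 gene (0.00583%). Over the 4 libraries it called 144 of 17371 genes (0.829%), 32 of them higher (0.184%) and 112 lower (0.645%) in P95H/+. The 1 gene called with the block was Ighg1, and in the other 3 sets with calls Ighg1 was the 1 member. Ighg1 was picked for this difference and passed the filter through its mutant libraries, so these calls restate the choice and nothing is read from them.

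**Figure D2:**
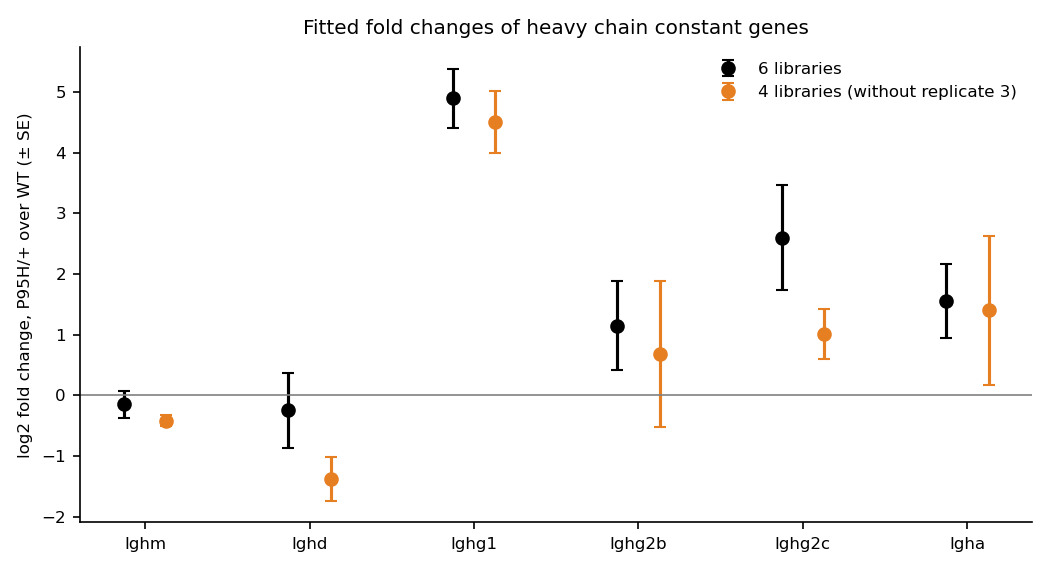
Fitted log2 fold change, P95H/+ over wild type (y axis), with bars of 1 SE, for the 6 members tested over 6 libraries (black) and the same genes over the 4 libraries without replicate 3 (orange). Ighg1 kept a value near 4.90 and 4.51, Ighg2c moved from 2.60 to 1.01, and Ighd moved from -0.25 to -1.38.

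Set per kilobase of exon, the order began with Ighm and Igha in both genotypes. These levels compare genes only roughly, since the annotated exon length was 1.33 kb for Ighg2c and 2.68 kb for Ighg2b. The longest coding sequences of Ighg2c and Ighg2b were alike, at 1211 and 1214 bases. In wild type Ighm stood at 125 ± 12.9 CPM per kb and Igha at 21.9 ± 15.9, and in P95H/+ Ighm stood at 106 ± 18.6 and Igha at 60.6 ± 14.9 (SD, n = 3 each). In each genotype the libraries' Ighm values were all above their Igha values, and Igha was above every other member in every library.

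Further down, the order in wild type was Ighg2b (2.78 ± 1.58 CPM per kb), Ighd (2.15 ± 0.832), Ighg2c (1.82 ± 1.38) and Ighg3 (1.33 ± 2.27), whose libraries overlapped. The mean of Ighg3 rests on replicate 1. Ighe (0.0824 ± 0.0957) and Ighg1 (0.0620 ± 0.0143) came last, and these values also overlapped. In P95H/+ the third place went to Ighg2c (10.6 ± 9.97 CPM per kb), followed by Ighg2b (5.83 ± 4.28), Ighg1 (1.87 ± 0.751) and Ighd (1.77, with libraries from 0.656 to 3.48). The place of Ighg2c rests on its shorter annotated length. In CPM not set per kb, the P95H/+ mean of Ighg2b (15.6) was above that of Ighg2c (14.0). Per kb, the ranges of neighbours in that order overlapped, but within each mutant library Ighg2c was above Ighg2b and Ighg2b above Ighg1. Ighg1 was above Ighd in P95H/+ replicates 1 and 2 and below it in P95H/+ replicate 3. Ighg1 was above Ighg3 and Ighe in all 3 mutant libraries. Ighg1 thus ranked 8 of 8 in wild type and 5 of 8 in P95H/+.

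**Figure D3:**
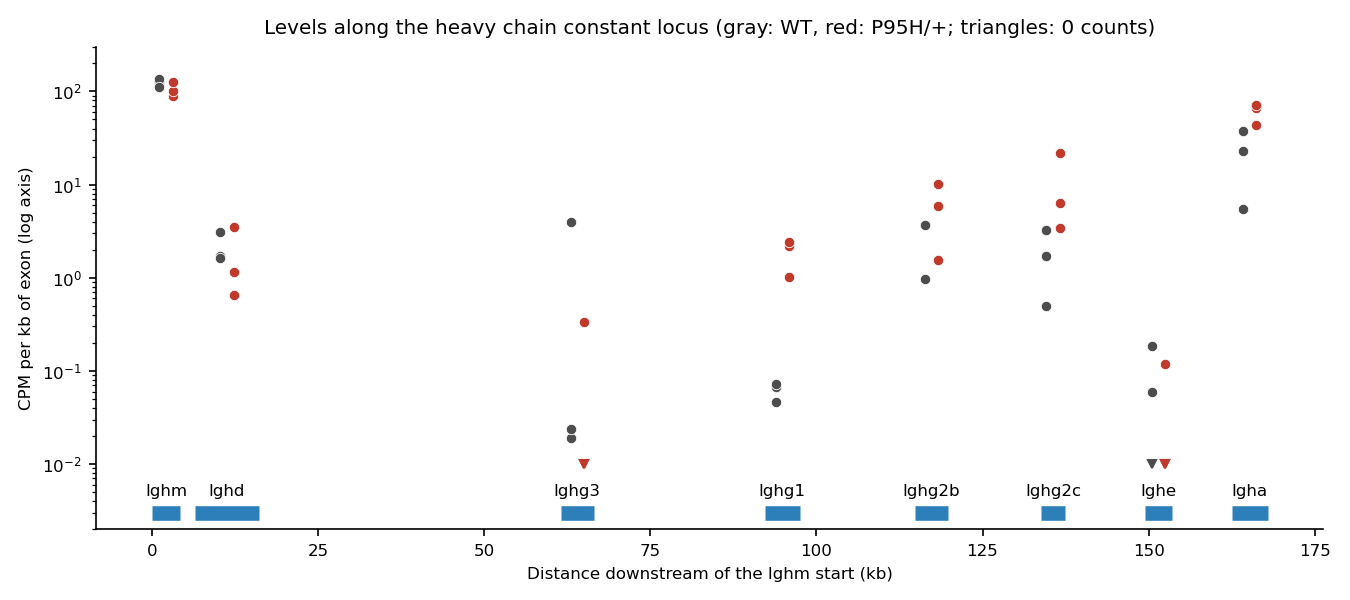
CPM per kb of exon (y axis, log scale) of each member in each library, placed by distance downstream of the start of Ighm in kb (x axis), with wild type in gray, P95H/+ in red, triangles for libraries with 0 counts and blue boxes for the genes. Ighm and Igha, at the 2 ends of the row, had the highest levels, and the IgG genes and Ighe between them were lower.

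The summed heavy chain counts overlapped between the genotypes, while their makeup did not. The 8 genes together stood at 357, 291 and 285 CPM in wild type and at 361, 340.1 and 499.9 CPM in P95H/+, where P95H/+ replicate 2 was below wild-type replicate 1. The 6 switched genes (IgG, IgE and IgA) took 32.0%, 10.1% and 25.3% of these counts in wild type and 52.4%, 43.0% and 50.9% in P95H/+. The exact 95% Clopper-Pearson interval, which covers counting error only and not the spread between libraries, was 31.0% to 33.0% for the highest wild-type share. The mutant shares were all above the wild-type shares, and the means were 48.7% ± 5.04 and 22.5% ± 11.2 (SD, n = 3 each).

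Most of the switched share was Igha. It made up 27.8%, 5.06% and 21.5% of the heavy chain constant counts in wild type and 49.0%, 34.2% and 38.3% in P95H/+. Ighm made up 66.4%, 88.8% and 73.6% in wild type and 47.3%, 56.4% and 47.8% in P95H/+, with no overlap. The 4 IgG genes together made up 4.17%, 4.98% and 3.73% in wild type and 3.36%, 8.75% and 12.5% in P95H/+. P95H/+ replicate 1 thus had the lowest IgG share of all 6 libraries and the highest Igha share. Igha counts exceeded Ighm counts in P95H/+ replicate 1 alone, with 1.04 Igha counts for each Ighm count, against 0.608 and 0.802 in P95H/+ replicates 2 and 3 and 0.0570 to 0.419 in wild type. Shares of 1 total depend on each other, and these rest on the genes that were picked.

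**Figure D4:**
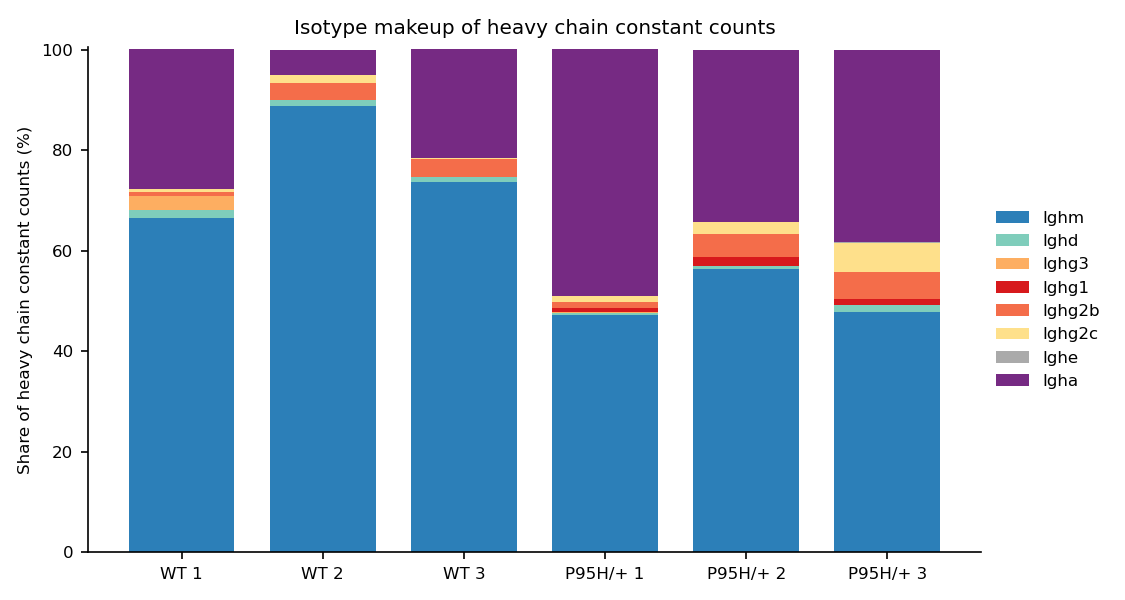
Share of the summed heavy chain constant counts (y axis, percent) taken by each of the 8 genes, with 1 stacked bar for each library. Ighm took 66.4% to 88.8% in wild type and 47.3% to 56.4% in P95H/+, and Igha took 5.06% to 27.8% and 34.2% to 49.0%.

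The genes that accompany heavy chains were then read from lists of the pathway. Of the light chain, J chain and surrogate light chain genes, 8 of 9 in the table were tested and none passed the adjusted threshold in either fit. Their median log2 fold change was 0.29 over 6 libraries, against 0.02 for all genes tested, and -0.40 over the 4 libraries. Igkc, the kappa light chain constant gene, stood at 82.4, 32.2 and 38.9 CPM in wild type and at 92.2, 82.6 and 79.7 CPM in P95H/+. Wild-type replicate 1 lay among the mutant libraries. The log2 fold change of Igkc was 0.81 (SE 0.36; edgeR adjusted p = 1.00).

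Jchain, the joining chain of polymeric IgA and IgM, stood at 33.4, 8.34 and 9.26 CPM in wild type and at 51.7, 36.7 and 19.9 CPM in P95H/+. Its groups overlapped in the same way, and the log2 fold change was 1.16 (SE 0.59; edgeR adjusted p = 1.00). Iglc1, a lambda light chain constant gene, was high in P95H/+ replicate 1 alone, at 18.5 CPM against 0.594 to 2.30 CPM in the other 5 libraries. Vpreb1 and Igll1 form the surrogate light chain of early B cells, and their fitted values were -0.02 (SE 0.48) and -0.12 (SE 0.42) on the log2 scale.

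Set against these partners, the switched heavy chain counts numbered 3.42, 3.52 and 7.80 for each Jchain count in wild type and 3.66, 3.99 and 12.8 in P95H/+. The 2 replicate 3 libraries had the highest ratios, and the genotypes overlapped. The summed heavy chain variable segments (Ighv) stood at 48.9, 24.5 and 34.6 CPM in wild type and at 67.1, 52.2 and 51.2 CPM in P95H/+. Switched counts for each Ighv count were 2.34, 1.20 and 2.09 in wild type and 2.82, 2.80 and 4.97 in P95H/+, which did not overlap. For each Igkc count they were 1.39, 0.912 and 1.86 in wild type and 2.05, 1.77 and 3.19 in P95H/+, which did. These ratios hold the picked genes and are a description. Ighm counts for each Ighv count were 4.85, 10.6 and 6.07 in wild type and 2.54, 3.67 and 4.67 in P95H/+, so the 2 genotypes did not overlap.

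**Figure D5:**
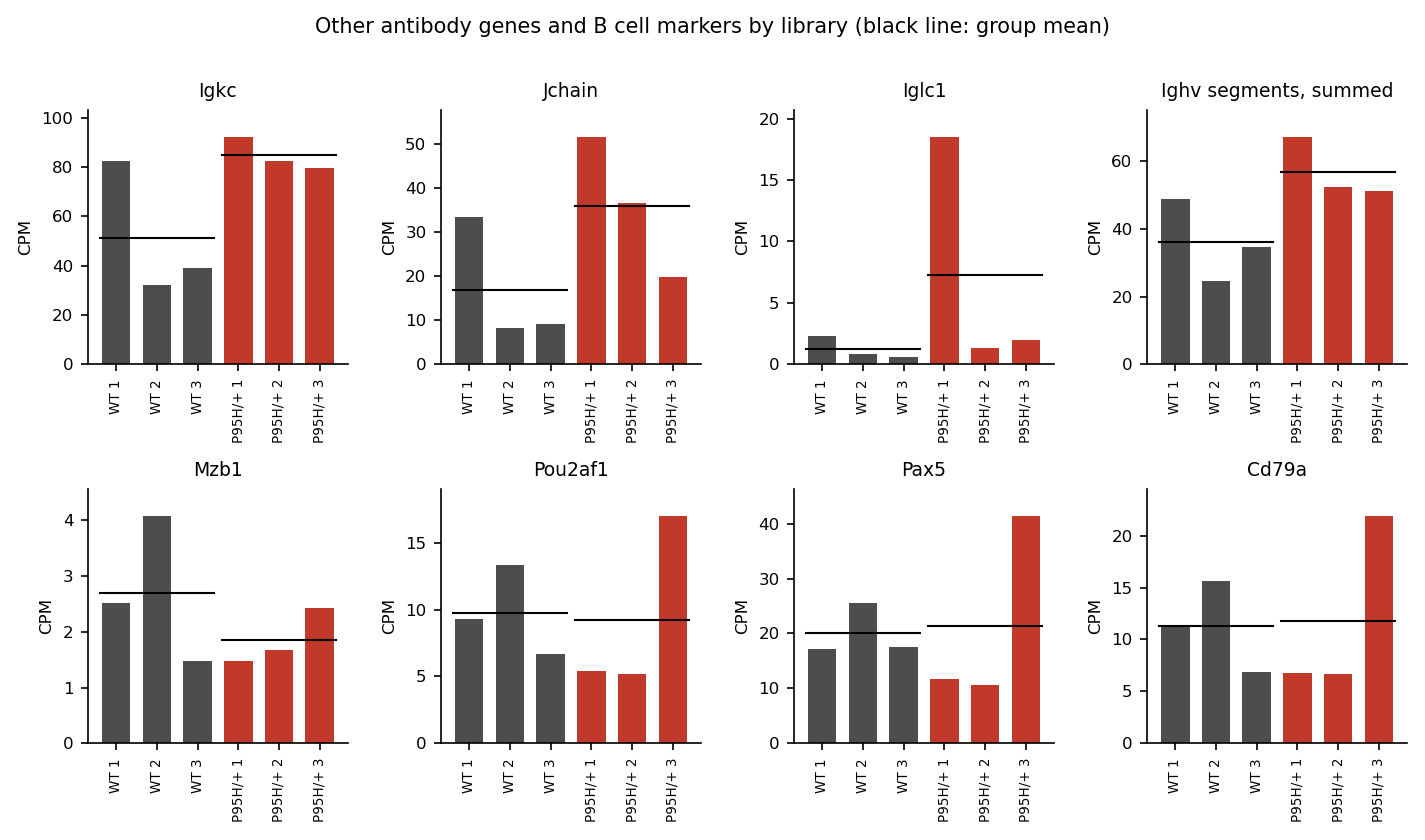
CPM (y axis, a separate linear scale from 0 in each panel) of light chain genes, Jchain, the summed Ighv segments and B lineage markers, with 1 bar for each library, wild type in gray, P95H/+ in red and a black line at the group mean. Igkc, Jchain and the Ighv sum had their highest wild-type value in replicate 1, while Pax5, Cd79a and Pou2af1 were highest in P95H/+ replicate 3. Mzb1 was highest in wild-type replicate 2.

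No marker of antibody-secreting cells was called. Of 15 tested, 0 passed in either fit, 8 had a positive and 7 a negative log2 fold change over 6 libraries, and the median was 0.00 (-0.22 over the 4 libraries). Their summed level was 334 to 368 CPM in wild type and 349 to 369 CPM in P95H/+. Mzb1, a chaperone of antibody assembly, stood at 2.52, 4.08 and 1.48 CPM in wild type and at 1.48, 1.68 and 2.42 CPM in P95H/+. Xbp1, a transcription factor of the secretory state, had a log2 fold change of 0.02 (SE 0.18), Sdc1, the plasma cell surface marker CD138, one of 0.28 (SE 0.25), and Prdm1, the gene of Blimp-1, one of 0.49 (SE 0.48). Tnfrsf17, the receptor BCMA, had 2, 3 and 1 counts in wild type and 12, 3 and 0 in P95H/+, and was not tested. Progenitors also express several genes of this list, Xbp1 among them.

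Genes of the secretory pathway, which fold and export proteins, also had no call among 18 tested, with a median of 0.01 (0.16 over the 4 libraries). Hspa5, the chaperone BiP that was found as a heavy chain binding protein, had a log2 fold change of -0.05 (SE 0.35). Herpud1, a gene of the unfolded protein response, had a log2 fold change of -0.39 (SE 0.18; edgeR adjusted p = 1.00). It was the 1 gene of the 18 whose mutant libraries all lay below wild type, where 5.93% of all genes tested did, so the list is near the background.

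Markers of mature B cells had no call among 19 tested over 6 libraries, with a median of -0.09. Of the 19, 3 (Cd79b, Cd72 and Tnfrsf13c) had all mutant libraries below all wild-type libraries, where 5.93% of all genes tested did. The summed level of the list was 238 to 345 CPM in wild type and 195 to 344 CPM in P95H/+. Cd79a, Pax5 and Spib, genes of B cell identity and receptor signalling, were highest in P95H/+ replicate 3: Pax5 stood at 41.4 CPM there and at 10.7 to 25.5 CPM elsewhere. The list was not uniform. Cd74, H2-Aa, Ralgps2, Cd72, Bank1, Cr2 and Ms4a1 were highest in wild-type replicate 1, and Cd79b and Tnfrsf13c in wild-type replicate 3. The list summed to 344 CPM in P95H/+ replicate 3 and to 345 CPM in wild-type replicate 1. P95H/+ replicate 3 also had the highest Ighd, Ighg1, Ighg2b, Ighg2c and Igha. The part of B lineage cells in those values was not tested. Over the 4 libraries without replicate 3, Blk, a kinase of B cell receptor signalling, was lower in P95H/+, with a log2 fold change of -2.28 (SE 0.37; edgeR adjusted p = 0.0272). It was the 1 of the 19 called lower, against 0.645% of all genes tested, and 0 were called higher. All 19 had negative values there, and the median was -0.86 against 0.00 for all genes tested.

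Among markers of pro-B and pre-B cells, the stages that rearrange the heavy chain locus, 0 of 16 were called over 6 libraries and 2 were called lower over the 4 libraries, where 0.645% of all genes tested were. These were Dntt, the polymerase that adds bases at variable region joints (log2 fold change -1.24, SE 0.17; edgeR adjusted p = 0.0495), and Foxo1, a transcription factor that drives the recombinase genes (log2 fold change -0.68, SE 0.12; edgeR adjusted p = 0.0442). The median of the list was -0.03 over 6 libraries and -0.69 over the 4. Cd79b was the 1 gene of the 16 whose mutant libraries all lay below wild type, against 5.93% of all genes tested. In the same 4 libraries Ighm had a log2 fold change of -0.42 and Ighd of -1.38, while Ighg1 and Igha had 4.51 and 1.40.

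Class switching draws on enzymes of DNA repair that many cells share. None of 26 tested genes of the switching and hypermutation list was called in either fit, and the median was 0.02 (0.03 over the 4 libraries). Trp53bp1, a repair factor that promotes switching, had a log2 fold change of -0.34 (SE 0.18; edgeR adjusted p = 1.00) and was the 1 gene of the list whose mutant libraries all lay below wild type, against 5.93% of all genes tested.

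Neither receptors that bind the constant regions nor the genes that flank the locus were called. Of 10 Fc and immunoglobulin receptor genes tested, 0 passed in either fit, with a median of -0.02 (-0.05 over the 4 libraries). On the log2 scale the IgG receptors of myeloid cells Fcgr3 and Fcgr2b had fitted differences of 0.02 (SE 0.25) and 0.23 (SE 0.21), and Fcer1g, the signalling subunit of Fcgr3, had -0.06 (SE 0.25). Of 9 neighbours of the heavy chain locus tested, 0 passed in either fit, with a median of 0.10 (-0.05 over the 4 libraries). The nearby genes Mta1, Brf1 and Pacs2 had values of 0.23 (SE 0.26), 0.10 (SE 0.19) and 0.10 (SE 0.30). Crip1 was the 1 neighbour of the 9 whose mutant libraries all lay below wild type, against 5.93% of all genes tested.

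Other cell types in the gate were read in the same way. T and NK cell markers had 0 calls among 9 tested, a median of -0.64 and a summed level of 15.3 to 36.0 CPM in wild type and 14.3 to 16.4 CPM in P95H/+, and Cd3g had 0 counts in at least 1 library. Of the 9 T and NK cell markers, 2 had all mutant libraries below all wild-type libraries, where 5.93% of all genes tested did. Wild-type replicate 1 held the highest sum of these markers, as it did the highest Ighg3. Over the 4 libraries the median of the T and NK cell markers was -1.06, and all 8 tested were negative. Stem and progenitor markers had 0 calls among 14 tested, with a median of -0.34 over 6 libraries and -0.40 over the 4. Of the 14, 2 (Ly6a and Procr) had all mutant libraries below all wild-type libraries, against 5.93% of all genes tested. Lineage markers used for depletion had 0 calls among 7, with a median of -0.12 over 6 libraries and -0.86 over the 4, where 6 of the 7 were negative.

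The genes whose levels over the 6 libraries were most like those of Ighg1 and Ighm were ranked among 21274 genes by Pearson's correlation of log2(CPM + 0.1), as a description. For Ighg1 they were Gml, Gm16153, Gm16585, Cdo1, Mir763, Tjp1, Trap1 and Gm17936, with r from 0.9725 to 0.9601. Ighg1 splits the libraries by genotype, and all 8 of these genes do too: Tjp1, a scaffold protein of tight junctions, stood at 2.91 to 5.22 CPM in wild type and at 10.6 to 13.1 CPM in P95H/+. None of the 8 is an immunoglobulin gene. Gml (0.0474 to 0.279 CPM) and Mir763 (0 to 0.354 CPM) were near the floor, so their r rests on few counts. Among antibody genes r with Ighg1 was 0.83 for Ighg2c, 0.69 for Igha and Igkc, 0.58 for Jchain and 0.52 for Ighg2b.

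For Ighm the most alike genes were Rras, Hipk4, Sulf2, Col1a1, Rcn3, Lamc1, Ccser1 and Hip1, with r from 0.9888 to 0.9783. These were lowest in P95H/+ replicates 1 and 2, as Ighm was: Hip1 stood at 37.8, 45.4 and 34.4 CPM in wild type and at 24.9, 28.7 and 44.4 CPM in P95H/+. Col1a1 was low, at 0.0461 to 0.663 CPM. Within the antibody genes Ighm was closest to Mzb1 (r = 0.87) and Ighd (r = 0.83), and its r was -0.57 with Igha and -0.44 with Ighg1. All of these correlations rest on 6 libraries that share their totals and their sorting.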

How the data were processed

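RNA from the 6 libraries was prepared with a stranded kit from 150 ng of total RNA and sequenced as paired reads of 150 bases, per the labels' protocols. The deposited raw gene counts and 2 CPM tables are the authors' own. The CPM tables matched count over library total to within 0.0005, and CPM was recomputed here from the counts. The submitters' processing notes name Trim Galore, cutadapt, STAR 2.5.3a, Picard 1.96, featureCounts (Subread 1.5.1), edgeR, limma and the mm10 build, without settings. Whether counting used strand is not given in the sources used here. Sequences and positions come from GENCODE M21 transcripts.

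Genes were tested with edgeR 4.0.16 (quasi-likelihood F test, 2-sided, TMM scaling, filterByExpr, Benjamini-Hochberg at 0.05) over 6 libraries, and over 4 without replicate 3. DESeq2 1.42.0 and limma 3.58.1, other scalings and filters, sex in the model, a replicate block and libraries left out were alternatives. The members and the 11 gene lists were chosen with earlier results of these data known. The members were all named, and from each list the genes past the threshold, the 4 with the highest mean CPM and the 2 with the smallest p could be named, plus secreting and mature B cell markers with a mean of at least 1 CPM. On simulated counts for 6 libraries the test recovered 2% of genes changed 2-fold and 73% of those changed 4-fold, and for 4 libraries 71% and 95%. False calls were 6 of 81 for 6 libraries and 16 of 182 for 4. Only genes with a mean above 1 CPM were changed. The simulated libraries held no shared shift of replicate 3, unlike the data. Same-numbered libraries of the 2 genotypes deviated together (correlations 0.372, 0.348 and 0.613). By the rule used, the replicate number was therefore taken to pair them, although the labels give no pairing. Wild-type replicate 1 correlated more closely with P95H/+ replicate 2 (0.463), and wild-type replicate 2 with P95H/+ replicate 1 (0.386), than with their own numbers. Deviations were taken from each genotype's mean. Both replicate 3 libraries stood apart, so replicates 1 and 2 deviated the other way in both genotypes. The check therefore cannot show a pairing. No 2 libraries agreed within sampling noise (chi-square per degree of freedom at least 7.59). Some genes of the lists are not reported by name here.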

Additional observations from a re-analysis of the deposited data

Results flagged for a closer look

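Of 30 genes compared by sex, 5 had mutant libraries on opposite sides of wild type in females and males. The 30 were tested members and genes named from the lists. The share over all genes was not computed, so nothing is read from the count. The value given is the log2 ratio of mean CPM, P95H/+ over wild type, in males minus that in females. It was 2.83 for Ighd (-1.77 in females and 1.06 in males), 3.78 for Blk, 4.09 for the NK cell receptor Ncr1, -0.48 for the chaperone Creld2 and -0.42 for the IgG receptor Fcgr2b. The difference was not tested. Females comprised 1 wild-type library, of 54 weeks, and males comprised 1 P95H/+ library, replicate 3, so sex cannot be told apart from age or from the libraries that stood apart.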

How the results depend on the processing

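The number of genes called moved with the libraries and the tool. It was 0 over 6 libraries, 1 with the replicate block as the pairing, 8 with DESeq2, 97 with quality weights in limma voom, 144 without replicate 3 of both genotypes, and 0 to 1 as single libraries were left out, the 1 call coming without wild-type replicate 3. The block changed no call of a gene list. The count of 144 was 302 with DESeq2, 124 with the block, and 99 to 830 as each of the 4 libraries was left out: 531 without wild-type replicate 1, 830 without wild-type replicate 2 and 474 without P95H/+ replicate 2. A genotype left with 1 library was assumed to vary like the other. Mature B cell markers had 1 call without replicate 3 and 1 with quality weights, and pro-B and pre-B cell markers 2 without replicate 3. The cause was not tested.

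The log2 fold change of Ighm moved from -0.15 to -0.42 without replicate 3 and to -0.39 with quality weights, that of Ighd from -0.25 to -1.38 without replicate 3 (-1.19 to 0.15 as single libraries were left out), and that of Ighg2c from 2.60 to 1.01 and 1.19. Blk turned to 0.04 without P95H/+ replicate 2 (range -2.11 to 0.04) and Il7r to 0.13 without wild-type replicate 2 (range -0.75 to 0.13). Per kilobase of exon, the mean P95H/+ share of the switched genes was 41.8% in place of 48.7%, and that of Igha 32.7% in place of 40.5%. Ighg1, Ighg2b, Ighg2c and Igha kept a positive sign under every alternative run. Ighg1 and Igha were picked for higher levels in P95H/+. For Ighg1, Ighg2c and Igha all mutant libraries were above all wild-type libraries. Refits of the same libraries could hardly change those signs, so nothing is read from them. Counts of 2 to 4 for Ighg1 in wild type limit the precision of its fold change.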

Other observations

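P95H/+ replicate 1 held most of the counts of a few variable segments besides its high Iglc1. Ighv1-15 had 272 counts there against 1 to 18 in the other 5 libraries, Iglv1 had 324 against 13 to 39, and Ighv1-7 had 139 against 3 to 16. These segments were named after their values were seen.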
